A study of Mus musculus with 2 samples.

Results

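The microRNA genes described here are the hairpins of the Mir297, Mir466, Mir467 and Mir669 families that lie inside the mouse gene Sfmbt2, on its strand. A row of the deposited tables was a member when its symbol began with one of these 4 family names and its mm10 interval fell within Sfmbt2 on chromosome 2, which left 59 of 1973 rows. By family these were 5 Mir297, 20 Mir466, 14 Mir467 and 20 Mir669 genes.

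The libraries were made from limbs of mouse embryos at 12.5 days of development, strain B6NCrl, with no treatment named in the labels. Both belong to 1 group. Replicate 1 came from 88 embryos and replicate 2 from 68, with males and females pooled, so each library is a pool and neither gives the spread between embryos. The sequenced fraction held RNA under 30 nucleotides. There is no second condition, and the data give levels, their spread over 2 pools and the relation of the levels to hairpin sequence and position. In such bulk tissue, fewer expressing cells and less RNA per cell cannot be told apart.

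Sfmbt2 encodes a Polycomb group protein. In rodents it is imprinted, being transcribed from the paternal copy, and is needed for the placenta. One of its introns carries a large array of tandem hairpins that is found in mice and rats, and these microRNAs are known mainly from early embryonic and extraembryonic cells. A microRNA is cut from a hairpin in its primary transcript, and bases 2 to 8 of the mature strand, the seed, choose its targets. In these families many mature strands are made of alternating UG or CA letters, so related members differ by few bases and are hard to tell apart by sequencing.

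The RefSeq table of GRCm38.p6 gave mature sequences for 8 relatives of the 10 that carry the same family names elsewhere in the genome, and matched 0 of the 59 members. Printed below, to show the letters that these families are built of, are 6 of the 8, from 5′ to 3′ with the seed in capitals.
miR-466i-3p (Mir466i, chromosome 13): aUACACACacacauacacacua
miR-466k (Mir466k, chromosome 3): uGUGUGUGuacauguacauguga
miR-466q (Mir466q, chromosome 3): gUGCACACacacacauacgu
miR-467f (Mir467f, chromosome 11): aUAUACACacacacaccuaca
miR-467h (Mir467h, chromosome 9): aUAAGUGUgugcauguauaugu
miR-669n (Mir669n, chromosome 3): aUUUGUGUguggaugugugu
The 8 sequences had 8 different seeds, so none of the relatives shared one. Steps between a purine and a pyrimidine made up 95.2% of the neighbouring bases in miR-466i-3p, 100% in miR-466q and 78.9% in miR-669n. The hairpins of the members had the same character. Their median was 86.6% of steps, against 44.2% over all 1894 rows with an annotated hairpin, and their median GC content was 37.2% against 51.0%. The 7 letters of the miR-466i-3p seed, searched on the hairpin's own strand, occurred in 37 of 59 member hairpins and in 7.81% of all row hairpins. Of the 8 seeds, that of miR-467g (not printed above) was in the most members, 50 of 59, and in 6.65% of all row hairpins. That of miR-467h was in the fewest, 1 member, and in 0.686% of all row hairpins. Such a match says only that the letters are present in the hairpin.

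In the limb libraries the members together held 15664 counts in replicate 1 and 11282 in replicate 2. This was 0.346% of the counts on microRNA genes in replicate 1 (95% Clopper-Pearson interval 0.341 to 0.352) and 0.313% in replicate 2 (0.307 to 0.319), or 3296 ± 234 CPM (counts per 1000000 counts on microRNA genes, SD, n = 2). The intervals did not overlap. Each describes sampling of reads within 1 library and leaves out the spread between pools. Copies made by PCR do not count separate molecules, so the intervals may also be too narrow. The tables sum both arms of a hairpin, so a level here is that of the whole gene. For none of the 59 genes was a count listed on the other strand.

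The total depth was 4525636 counts on microRNA genes in replicate 1 and 3604284 in replicate 2. A count of 0 allowed up to 3 counts, or 0.663 CPM in replicate 1 and 0.832 CPM in replicate 2. Reads that mapped to several places were set apart in the deposited tables and made up 27.2% of the reads of replicate 1 and 23.7% of replicate 2. The levels below leave that class out. Among markers of the labelled tissue, Mir196b of the Hox clusters stood at 86831 ± 9376 CPM, Mir140 of cartilage at 23899 ± 1020 CPM and Mir205 of ectoderm at 7403 ± 120 CPM. The liver marker Mir122 stood at 15.0 ± 2.8 CPM and 3 neuronal Mir124a rows at 0 counts. Those 3 rows are copies of 1 family, and reads that fit several copies were set apart. Their 0 therefore may not measure their level. Of the set of early embryonic and extraembryonic cells, Mir290a had 0 counts and Mir294, at 8.04 ± 5.11 CPM, was the highest of the 5 rows named as markers.

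A few members carried nearly all of the members' counted reads. With detection set at 10 CPM or more in both libraries, 7 of 59 members (11.9%) were detected, against 286 of all 1973 rows (14.5%), so the members' share was near that of the tables as a whole. They were Mir467d, Mir467e, Mir467c, Mir669l, Mir669o, Mir669c and Mir669e. These 7 held 99.3% of the members' counts in replicate 1 and 99.4% in replicate 2. The other 52 held 104 and 71 counts. Reads that mapped to several places were left out, so these are shares of the counted reads and not of all reads from the array. Neither the Mir297 nor the Mir466 family had a detected member.

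The Mir467 family led. Mir467d, Mir467e and Mir467c together made up 79.0% of the members' counts in replicate 1 and 81.7% in replicate 2. Mir467d (ENSMUSG00000077021, chromosome 2, 10507630 to 10507714, plus strand) stood at 1048 CPM in replicate 1 and 1012 CPM in replicate 2, which ranked it 92nd and 96th of all rows. Mir467e (ENSMUSG00000076948, 10505721 to 10505807) stood at 869 and 816 CPM. Mir467c (ENSMUSG00000077049, 10473931 to 10474027) stood at 817 and 729 CPM.

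The order Mir467d, Mir467e, Mir467c held in both libraries. The ratio of Mir467d to Mir467e was 1.21 in replicate 1 and 1.24 in replicate 2, and that of Mir467e to Mir467c was 1.06 and 1.12. In sequence the Mir467d and Mir467e hairpins were 92.0% identical, and Mir467c was 84.5% identical to Mir467e. The ranges of Mir467e and Mir467c over the 2 pools overlapped, since Mir467e in replicate 2 (816 CPM) lay below Mir467c in replicate 1 (817 CPM). Between Mir467d and the other two, the ranges did not overlap. Counts were not divided by hairpin length, because a read covers a whole mature microRNA.

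The remaining 11 genes of the Mir467 family gave almost no reads. Mir467b had 6 and 9 counts, and the 10 Mir467a rows had 4 counts in replicate 1, all on Mir467a-1, and 0 in replicate 2. Mir467a-2, Mir467a-4, Mir467a-5, Mir467a-7, Mir467a-8 and Mir467a-9 have the same hairpin letter for letter, as does 1 row of another name, and Mir467a-3, Mir467a-6 and Mir467a-10 share a second hairpin. A read from these 9 hairpins cannot be assigned to 1 copy, so their listed 0 is not a measurement of their level.

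The Mir669 family came second, with 4 detected genes of 20. Mir669l (ENSMUSG00000076959, 10468971 to 10469068) stood at 301 CPM in replicate 1 and 240 CPM in replicate 2. Mir669o (ENSMUSG00000077086, 10514300 to 10514395) stood at 288 and 211 CPM, below Mir669l in each library, but the ranges of the pair over the pools overlapped. Mir669c (ENSMUSG00000076118, 10509296 to 10509404) followed at 93.5 and 83.2 CPM, below both in each library, and Mir669e (ENSMUSG00000080653, 10467495 to 10467613) at 20.99 and 19.4 CPM. Mir669h (9 and 9 counts) and Mir669f (8 and 6 counts) were the only others of this family with 3 or more counts in both libraries. In 11 of the 20 Mir669 genes no count fell in either library.

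The Mir466 family, with 20 genes, summed to 63 counts in replicate 1 and 40 in replicate 2. Mir466n (10513741 to 10513834) held most of these, at 11.05 CPM (50 counts) in replicate 1 and 7.49 CPM (27 counts) in replicate 2, just under the detection threshold in the second library. A further 10 Mir466 genes had counts in at least 1 library, none above 4. The Mir297 family had 11 and 5 counts over its 5 genes, of which Mir297a-2 held 10 and 5.

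**Figure D1:**
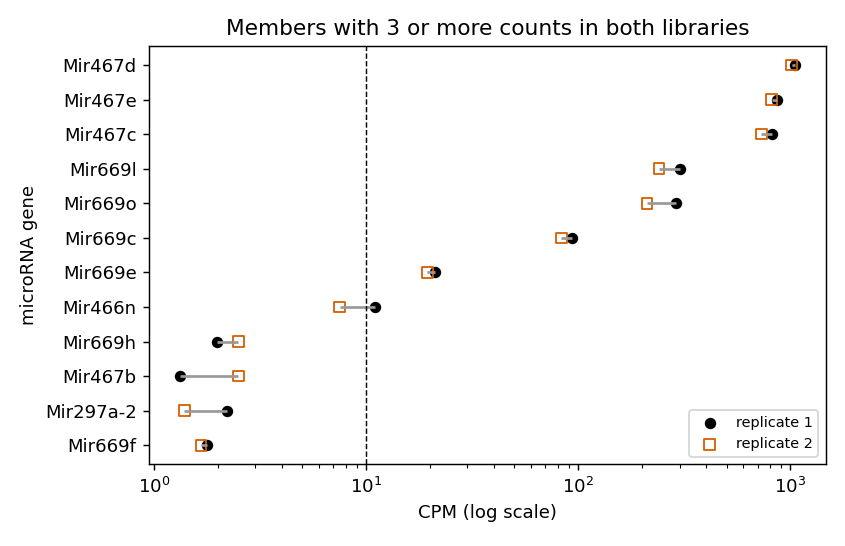
CPM (log scale) of the 12 members with 3 or more counts in both libraries, one line per gene, with replicate 1 as filled circles, replicate 2 as open squares and the detection threshold of 10 CPM as a dashed line. Mir467d, Mir467e and Mir467c lie between 729 and 1048 CPM, the 4 detected Mir669 genes between 19.4 and 301 CPM, and Mir466n on either side of the threshold.

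Of the 59 members, 27 had at least 1 count and 32 (54.2%) had none, against 1256 of all 1973 rows (63.7%). Of the members, 12 reached 3 counts in both libraries, against 454 of all 1973 rows. The same 12 of 59 reached 1 CPM in both, against 417 of all 1973 rows (21.1%). The 15 with fewer counts had at most 4 in a library, which is close to what a count of 0 allows.

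The detected genes ran from the 4th to the 52nd of the 59 hairpins in order, so the hairpins at either end of the array were not detected. The 59 hairpins spanned 51.6 kb of a 62472-base intron of Sfmbt2 (10461473 to 10523944), from 96.2 to 147.8 kb after the start of the gene. No exon of the 7 annotated Sfmbt2 transcripts overlapped a member, and 2 of these transcripts span the whole array. Neighbouring members lay a median of 314 bases apart. From the proximal end, Mir669e, Mir669l and Mir467c were the 4th, 8th and 13th hairpins. Mir467e, Mir467d, Mir669c and Mir669o were the 40th, 42nd, 45th and 52nd.

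Between Mir467c and Mir467e lay 26 hairpins over 29.2 kb, and 0 of these were detected. The bounds are successive detected genes and were chosen with the levels known. That 0 detected genes lie inside and all 7 outside follows from this choice. They held 11 counts in replicate 1 and 14 in replicate 2, on Mir467b, Mir467a-1, Mir466b-3 and Mir669a-3. This stretch is the tandem part of the array, in which Mir467a copies recur at a median step of 2462 bases. Of its 26 hairpins, 17 are identical to another annotated hairpin, and 19 have no stretch of 20 bases that is theirs alone. In the 33 members outside it, Mir467c and Mir467e included, 23 had counts and 7 were detected.

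**Figure D2:**
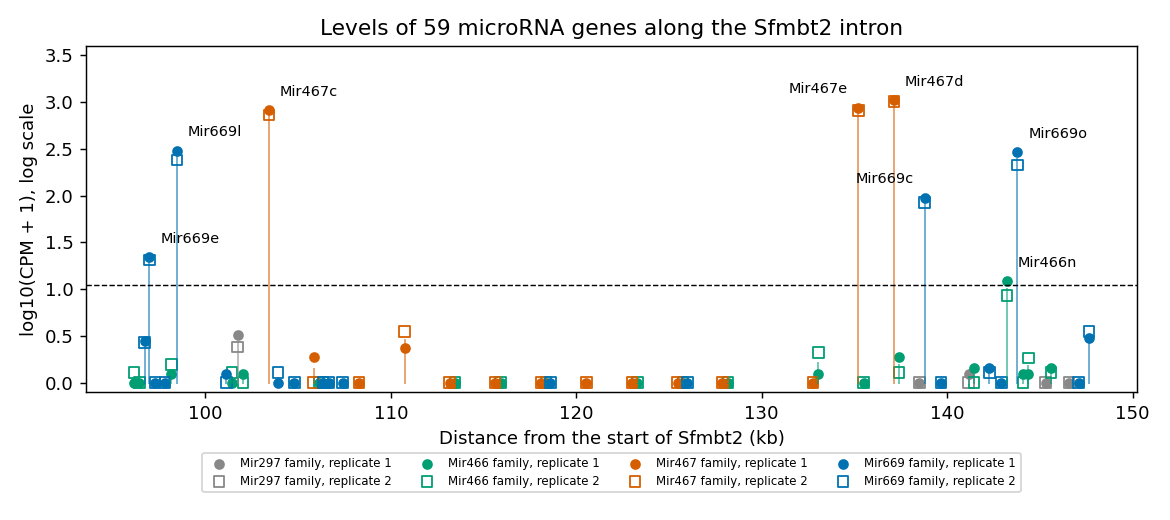
Level of each of the 59 members, as log10(CPM + 1), against its distance in kb from the start of Sfmbt2, coloured by family, with replicate 1 as filled circles, replicate 2 as open squares, a line to the mean and a dashed line at 10 CPM. The 3 detected genes on the left and the 4 on the right flank a stretch of 26 hairpins that hold 11 counts in replicate 1 and 14 in replicate 2.

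Close neighbours differed widely in reads placed at 1 site. Mir466p (10506006 to 10506094) begins 198 bases after Mir467e and had 0 counts in both libraries. With the floor of 3 counts taken per library, the counts of Mir467e were at least 1311-fold higher in replicate 1 and at least 980.0-fold higher in replicate 2. Reads that Mir466p shares with other hairpins were left out, so these folds set no bound on the difference in level. Mir466 (10507918 to 10507990) begins 203 bases after Mir467d and had 4 counts and 1 count against 4743 and 3646. Mir466g begins 199 bases after Mir669o and had 1 count and 0, against 1305 and 760. Each pair lies in the same intron, on the same strand. By the measure described next, Mir466p had 37.1% of its 20-base windows to itself, against 57.4% for Mir467e. When windows with 1 mismatch also counted as shared, the order turned, with 27.1% for Mir466p and 13.2% for Mir467e. For Mir466 and Mir467d the shares were 37.0% and 37.9%, and with 1 mismatch 0% and 16.7%.

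How far each hairpin could be told apart from the others was measured from sequence. Each hairpin was read in windows of 20 bases, about the length of a mature microRNA, and a window counted as unshared when it occurred at 1 place among the 2202 annotated mouse microRNA hairpins, on either strand. Over the members a median of 29.9% of windows were unshared, against 100% over all rows. In 20 of the 59 (33.9%) no window was, against 13.6% of all 1894 row hairpins, and 58 of the 59 shared at least 1 stretch of 20 bases with another hairpin. Unannotated copies in the genome were not counted, so the true share of single-copy windows is at most this large.

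All 7 detected members had unshared windows. The share was 37.9% in Mir467d, 57.4% in Mir467e, 60.3% in Mir467c, 50.6% in both Mir669l and Mir669o, 81.1% in Mir669c and 95% in Mir669e. Their median was 57.4%, against 0% in the 32 members without counts, of which 19 had no unshared window. In the 20 members with no unshared window the only counts were the 4 on Mir467a-1. Reads placed at several sites were not counted, so these contrasts follow in part from the counting, to an extent that was not tested. The other 13 of the 32 members without counts had unshared windows, at most 87.2%. The measure is not strict, since Gm23935 on chromosome 16, with 0% unshared windows, had 598 counts in replicate 1 and 330 in replicate 2.

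The number of near copies also varied among the detected genes. Mir669o shared a stretch of 20 bases with 56 other hairpins, Mir669c with 45 and Mir669l with 35. The 3 Mir467 genes shared one with 14 to 16 hairpins, and Mir669e with 1. The longest run of unshared windows was 38 bases in Mir467d, 39 in Mir467e, 49 in Mir467c, 40 in Mir669l, 44 in Mir669o, 92 in Mir669c and 114 in Mir669e. Each of the 7 thus had room for a whole mature strand that no other annotated hairpin holds. Whether the sequenced arm lies there was not tested, since the tables do not separate arms. When a window with 1 mismatch to another hairpin also counted as shared, Mir669e kept 78.0%, Mir669c 48.9%, and the other 5 between 10.4% and 19.2%.

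Members with much unshared sequence did not always have reads. The highest levels belonged to genes in the middle of the scale, and Mir669e, with the largest share among the detected genes, had the lowest level of them. Mir466g was unshared over 100% of its windows, yet had 1 count in replicate 1 and 0 in replicate 2. Mir466h (93.5% unshared) had 1 and 3 counts, Mir466l (85.3%) had 2 and 1, and Mir669b (87.2%) and Mir669i (73.1%) had 0. Of the 13 members with 50% or more of their windows unshared, 6 were detected and 7 were not. Mir467d was the detected gene below 50%.

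**Figure D3:**
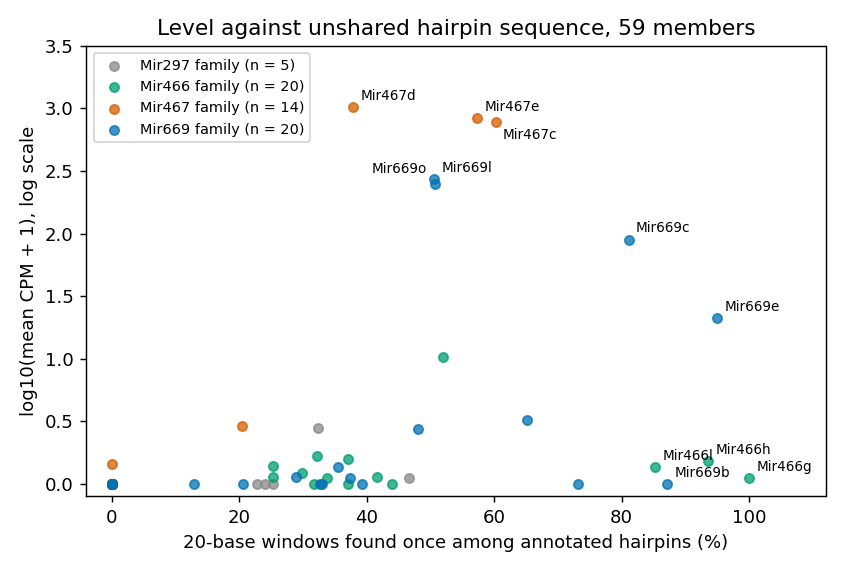
Mean level of each member, as log10(mean CPM + 1), against the share of its 20-base windows found at 1 place among all annotated microRNA hairpins, coloured by family. Mir467d reaches 1030 CPM with 37.9% of windows unshared, Mir669e reaches 20.2 CPM with 95%, and Mir466g lies at 0.110 CPM with 100%.

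The share of detected hairpins was compared with other tandem arrays. The distal Dlk1-Dio3 cluster of chromosome 12, an imprinted array expressed from the maternal copy, had 28 of 33 rows detected and held 3.46% ± 0.0082 of the counts (SD, n = 2), with a median level of 218 CPM in replicate 1 and 211 CPM in replicate 2. The median of the Sfmbt2 members was 0 CPM in both, as it was over all rows. The Dlk1-Dio3 hairpins were distinct, with a median of 100% unshared windows, and 0 of 33 lacked them. The list drawn up for the X-linked testis cluster, with the same median of 100%, had 0 of 19 rows detected. In 4 of these 19 hairpins no window was unshared. The list was chosen by gene name and includes Mir882, which lies on chromosome 12 and had 0 counts. The Mir290 to Mir295 cluster of chromosome 7 had 0 of 7 rows detected, with 81 counts in replicate 1 and 109 in replicate 2. The 10 relatives of the 4 families outside Sfmbt2 had a median of 70.0% unshared windows, above the 29.9% of the members, and 0 counts in both libraries. In reads placed at 1 site the relatives therefore allow at most 3 counts in all, against 3296 CPM for the members. This floor is 0.663 CPM in replicate 1 and 0.832 CPM in replicate 2. No test was made of these differences, which compare genes and not samples.

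The pools were compared gene by gene. Of the 12 members with 10 or more counts in the sum, 10 were lower in replicate 2, and their median log2 ratio of replicate 2 over replicate 1 was -0.14, against -0.01 over all 436 rows with that many counts. A two-sided exact binomial test, with Benjamini-Hochberg adjustment over the 436 rows, called 4 of the 12, all lower in replicate 2. Over all rows 41.7% were called in either direction and 21.3% lower in replicate 2. The test sets these 2 libraries against counting error and compares no conditions.

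Mir669o differed most among the called genes, at 288 CPM in replicate 1 and 211 in replicate 2 (log2 ratio -0.45, SE 0.066, exact binomial adjusted p = 2.26e-11). Mir669l had a log2 ratio of -0.33 (SE 0.063, exact binomial adjusted p = 7.13e-07), Mir467c of -0.16 (SE 0.037, adjusted p = 2.95e-05) and Mir467e of -0.09 (SE 0.035, adjusted p = 0.0249). Mir467d, the highest member, had -0.05 and was not called (adjusted p = 0.212), nor was Mir669c with -0.17 (adjusted p = 0.239). Among the 286 detected rows the log2 ratios had an SD of 0.34, and the ratios of Mir669l, Mir467c and Mir467e lay within it while that of Mir669o lay beyond it. The negative binomial exact test of edgeR called 0 of the 12 members and 0 of 436 rows. Its dispersion was estimated from the same 2 libraries taken as 1 group, so differences between them enter the spread they are tested against, and few calls follow from that construction. At an unadjusted p under 0.05 it had 0 members and 25 rows, and the smallest member p was 0.207, for Mir669o.

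Summed counts of the Mir467 family were 3.86 times those of the Mir669 family in replicate 1 and 4.58 times in replicate 2. The Mir467 share of all counts was 0.265% ± 0.013 and the Mir669 share 0.0633% ± 0.0106 (SD, n = 2). In each library the Mir467 share was the larger, by more than the spread between the pools. These sums leave out reads placed at several sites. No window was unshared in 10 of 14 Mir467 and 4 of 20 Mir669 genes, and 9 further Mir669a genes have no row.

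**Figure D4:**
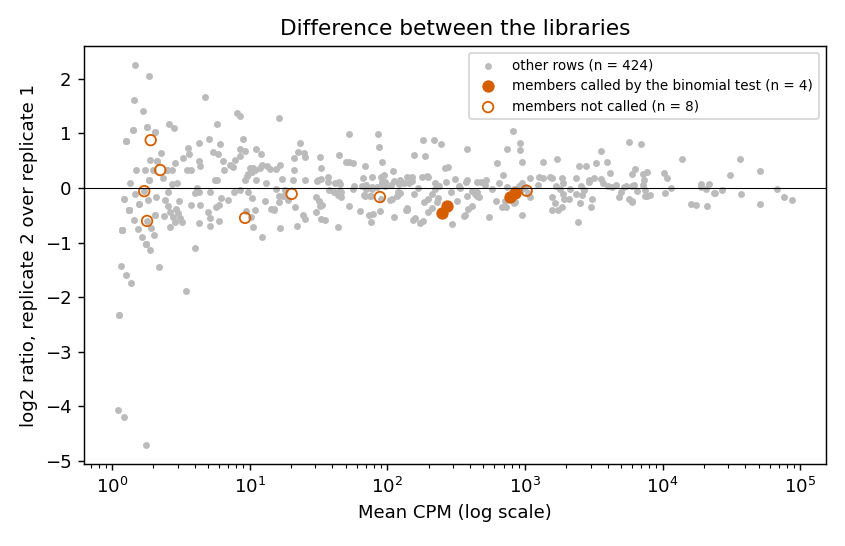
Log2 ratio of replicate 2 over replicate 1 against mean CPM (log scale) for the 436 rows with 10 or more counts in the sum, with the 12 members in orange, filled where the exact binomial test called them. The 4 called members lie between -0.45 and -0.09, inside the cloud of other rows.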

How the data were processed

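The authors deposited raw counts of reads per microRNA gene for each library. Per the README deposited beside each table, reads were placed on mm10 and counted over GENCODE M4. Aligner and counter were not given in the sources used here. Of 3 count columns the second, read from its values as the gene's own strand, was used, and 4 rows naming no gene were dropped. These held unmapped (23.8% and 32.6% of reads in replicates 1 and 2), multimapping (27.2% and 23.7%), unannotated (6.49% and 6.70%) and ambiguous reads (0%). Identifiers were matched to GENCODE M21 (GRCm38), in which 1894 of 1973 rows had a match. The members and lists were chosen with earlier results of these data known. CPM is relative to all counts on microRNA genes. The libraries were compared by a two-sided exact binomial test (SciPy 1.17.1), with 0.5 counts added for ratios, and by edgeR 4.0.16 (R 4.3.3, common dispersion, estimated from both libraries as 1 group). DESeq2 1.42.0 gave alternative size factors. Both tests used rows with 10 or more counts in the sum. Genes named are those at 10 CPM in both libraries, then those with 3 or more counts in both. Others are named as neighbours, as copies, or for their unshared windows, and these were chosen after their values were seen. The window measure had been planned against the genome and was made against annotated hairpins, because a genome sequence was not used here. The binomial comparison was tested on simulated counts.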

Additional observations from a re-analysis of the deposited data

How the results depend on the processing

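The members' share of 0.330% became 0.131% with all reads of the library as denominator and 0.226% over members with at least 50% unshared windows. Without one replicate it ranged from 0.313% to 0.346%, and the number detected from 7 to 8. At 1 CPM 12 members were detected and at 100 CPM 5. The edgeR negative binomial test, whose dispersion comes from the same 2 libraries, called 0 members and 0 rows, where the binomial test called 4 and 182. The other scalings, filters and strand setting kept the number of called members at 4. The median of unshared windows over members was 26.1% with 18-base windows, 36.0% with 22-base windows and 2.53% when windows with 1 mismatch counted as shared. In that last setting the detected members had a median of 19.0% and Mir467d 16.7%. No paired analysis was possible because there is 1 group. Depth limits every member below about 3 counts.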

Other observations

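Other microRNA hairpins lie in the same intron under names of predicted genes. There were 48 such rows inside Sfmbt2 on its strand, and 44 had 0 counts in both libraries. Gm22925 (10510791 to 10510892) was the highest, with 11 counts in replicate 1 and 4 in replicate 2, followed by Gm22239 with 2 and 2. Together the 48 rows held 15 and 6 counts, against 15664 and 11282 for the 59 members. Their hairpins also were shared to a large extent, with a median of 11.1% unshared windows, and 22 of 48 had none.

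GENCODE M21 annotates 71 genes of the 4 families inside Sfmbt2, of which 12 have no row in the tables. These are 9 Mir669a genes, from Mir669a-4 to Mir669a-12, and the 3 genes Mir466b-1, Mir466c-1 and Mir466e. These 12 genes have no level of their own here. Whether reads from them were counted on a listed near copy was not tested.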
